A study of Mus musculus with 64 samples.

Results

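The genes described here are 21 variable segments of the T cell receptor alpha chain, measured by RNA sequencing in cultured mouse CD4 T cells. They are all the genes that the deposited table labels as T cell receptor genes (a biotype that starts with TR_, pseudogenes apart) and that reached a deposited group mean of at least 10 normalized counts in 1 or more of the 16 groups of the study. The table holds 23134 rows, of which 43 carry such a biotype, 42 of them alpha variable segments and 1 a delta variable segment. The 21 that reached 10 all lie on the plus strand of chromosome 14 and belong to 13 families. No constant gene and no beta segment was found by this rule, because the table labels them differently. The constant genes Trac, Trbc1, Trbc2 and Tcrg-C2 carry an immunoglobulin constant label there, and 19 beta and 5 alpha variable segments at or above 10 carry an immunoglobulin variable label. A further alpha segment is labelled as a protein-coding gene. Those 4 constant genes, 19 beta segments and 6 other alpha segments were kept apart and serve only for comparison.

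A T cell receptor alpha chain gene is assembled in the thymus, where the RAG recombinase joins a variable (V) segment to a joining segment, and the joined exon is then spliced to the constant gene Trac. A mature T cell has 1 or 2 rearranged alpha genes, so in a mixed population the RNA of a V segment depends on how many cells use it and on how much alpha chain RNA each of them holds. In these bulk samples, fewer cells that use a segment and less RNA per cell cannot be told apart. In C57BL/6 mice much of the V array exists in near-identical copies, whose names carry a d or an n, and segments with dv in their names can also be joined in delta chains.

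The study followed cells without Roquin or without Regnase-1, proteins that bind and limit the RNA of immune genes, through a course of restimulation. CD4 T cells were taken from the spleen of C57BL/6J mice in 4 genotypes, which all carry Cd4-Cre-ERt2, a tamoxifen-inducible Cre expressed under Cd4 control. WT cells had that Cre alone, DKO cells also had Rc3h1/2 fl/fl, KO cells had Zc3h12a fl/fl, and TKO cells had both. Cells of every genotype, WT included, received 4-OH-tamoxifen, were activated through CD3 and CD28 under Th1 conditions for 40 h and rested in IL-2 for 2 days. Restimulation with anti-CD3/28 then lasted 0, 1, 2 or 4 h. There are 4 libraries in each of the 16 groups, named here by their place in the deposited list, which carries no replicate numbers. The labels do not say that the 4 come from separate animals or cultures, so a p-value sets a difference against the spread of libraries that may be technical repeats. RNA from exons that were not deleted may still be counted, so the targeted genes check the labels only in part. At 4 h Rc3h1 was at 489 to 533 normalized counts in DKO and 519 to 663 in TKO libraries, below every WT (1092 to 1240) and KO library (1164 to 1575). At 0 h Rc3h1 in DKO (413 to 556) and TKO libraries (457 to 611) overlapped with WT (519 to 678). Rc3h2 at 4 h was at 541 to 685 in DKO and 638 to 919 in TKO libraries, which overlaps with WT (458 to 671) and KO (642 to 882). At 0 h every DKO (607 to 723) and TKO library (646 to 876) had more Rc3h2 than every WT library (477 to 579). The same held at 1 h for DKO (735 to 847) and TKO (768 to 982) against WT (529 to 727). The level of Rc3h2 thus does not check its deletion. Zc3h12a at 1 h was at 447 to 696 in KO and 415 to 492 in TKO libraries, below every WT (781 to 1030) and DKO library (989 to 1369). At 4 h Zc3h12a overlapped between WT (116 to 174), KO (92.1 to 174) and TKO libraries (108 to 130).

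Libraries held 5369869 to 11666535 reads (median 7720303), of which the 21 segments together took 129 to 351 (median 222.5). That is 0.00132 to 0.00436% of a library, and 4.72 to 20.75 reads per library for a segment on average. Levels below are normalized counts, which are reads scaled by the trimmed mean of M values to the median depth. The rule used the level itself, so the levels are a description and carry no test. The 3 segments just inside the threshold had highest deposited group means of 10.9 (Trav5-4), 11.425 (Trav9-1) and 12.825 (Trav7-6), and the 3 just outside had 9.975 (Trav9-4 and Trdv1) and 9.85 (Trav10d). Of the 21 segments, 4 reached 10 in all 16 groups, 8 in 8 to 15 groups and 9 in 2 to 7, so many entered through their higher groups and the counts of changed segments below are affected by that choice. Trav5-4 did not pass the filter on low values for the tests, so tests cover 20 of the 21.

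How much of a segment's reads belong to it depends on its sequence. Of the 21 V exons (279 to 312 bases long), 18 have another annotated V exon that is at least 95% identical, and Trav14d-1 is 100% identical to Trav14n-1. The ends of these exons are printed because they show how little separates segments whose values are given below. Each run is the last 90 bases of the V exon, 5′ to 3′ on the plus strand, from GENCODE M21 transcripts (GRCm38). In the Trav14 group, capitals mark the bases that differ from Trav14-3, the segment with the highest level, which spans chr14:53763605-53763694.
Trav14-3: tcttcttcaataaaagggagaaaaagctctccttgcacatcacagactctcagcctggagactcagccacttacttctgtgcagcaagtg
Trav14n-3: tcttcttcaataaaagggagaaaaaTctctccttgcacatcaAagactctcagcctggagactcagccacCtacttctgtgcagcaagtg
Trav14-2: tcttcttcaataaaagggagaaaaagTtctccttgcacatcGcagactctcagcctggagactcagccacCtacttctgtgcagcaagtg
Trav14d-1: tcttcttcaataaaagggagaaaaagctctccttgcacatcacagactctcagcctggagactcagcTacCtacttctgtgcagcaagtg
Trav14n-1: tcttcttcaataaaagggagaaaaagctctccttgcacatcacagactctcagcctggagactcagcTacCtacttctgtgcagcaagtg
Trav14n-3 (chr14:53370486-53370575) and Trav14-2 (chr14:53641136-53641225) each differ from Trav14-3 at 3 of the 90 bases. Trav14d-1 (chr14:52856077-52856166) and Trav14n-1 (chr14:53167089-53167178) differ from it at the same 2 and not from each other. Trav14n-3 and Trav14n-1 are among the 6 other alpha segments, so a read from this stretch can fall to a gene on either side of the rule.

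The Trav12 group is shown because Trav12-3 was the segment called lower in most genotypes. Capitals mark the bases that differ from Trav12-3 (chr14:53622156-53622245).
Trav12-3: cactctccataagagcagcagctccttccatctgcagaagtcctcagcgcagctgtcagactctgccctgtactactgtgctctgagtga
Trav12-2: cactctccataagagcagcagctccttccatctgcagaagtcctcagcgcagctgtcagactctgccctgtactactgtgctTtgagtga
Trav12d-2: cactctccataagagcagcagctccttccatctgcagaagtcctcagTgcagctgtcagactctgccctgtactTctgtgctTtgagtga
Trav12-2 (chr14:53616825-53616914) differs from Trav12-3 at 1 of these bases and Trav12d-2 (chr14:52916337-52916426), which is not among the 21, at 3.

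Trav17, Trav19 and Trav21-dv12 are the 3 of the 21 segments whose V exon shares no window of 50 bases with the transcripts of another annotated gene. Here capitals mark TANNNNTGT, which can encode the tyrosine, any residue and cysteine that close the V domain before the CDR3 loop.
Trav17: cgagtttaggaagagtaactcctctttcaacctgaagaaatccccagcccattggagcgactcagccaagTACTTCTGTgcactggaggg
Trav19: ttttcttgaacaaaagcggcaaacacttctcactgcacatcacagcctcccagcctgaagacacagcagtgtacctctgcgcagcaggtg
Trav21-dv12: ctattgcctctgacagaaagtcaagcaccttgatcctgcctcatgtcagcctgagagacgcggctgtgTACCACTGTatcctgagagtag
They lie at chr14:53807026-53807115, chr14:53845738-53845827 and chr14:53876663-53876752. The motif was searched on the coding strand only, in the last 30 bases, and found in 19 of the 21 segments against 96 of all 108 annotated alpha V exons (88.9%). Trav19 does not hold these letters in that window.

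Windows of 50 bases were called unique if the transcripts of no other annotated gene held them, on either strand. The median segment had 54.8% unique windows, against 15.6% for the other 87 annotated segments and 28.4% for the 63 of these in the table. Shares below 50% were found for 9 of the 21, among them Trav6-5 (2.88%), Trav6-3 (1.23%) and Trav14d-1 (0%), and the values of these 3 in particular are uncertain because the authors' counting may have split or dropped shared reads. The segments lay 344 to 1364 kb before Trac (median 554 kb), while the other annotated segments had a median of 1087 kb. Only Trav14d-1 carries a d or an n in its name, against 61 of the other 87.

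Per length of exon, levels ranged from 1.48 CPM per kb (Trav14d-1) to 6.90 CPM per kb (Trav14-3), where CPM is counts per 1000000 reads. Trav14-3 was followed on that scale by Trav12-3 (5.76), Trav3-3 (5.39), Trav14-2 (5.34), Trav17 (4.69), Trav4-4-dv10 (4.41), Trav16 (4.26), Trav7-4 (3.70) and Trav13-2 (3.69). Neighbours in this order are close, and the first 4 changed places between groups. Trav14-3 was the highest of the 21 in 6 groups, Trav12-3 in 5, Trav3-3 in 4 and Trav14-2 in 1. In normalized counts, means over the 64 libraries were 20.8 for Trav14-3, 19.9 for Trav12-3, 17.4 for Trav3-3, 16.1 for Trav14-2, 13.9 for Trav16 and 13.0 for Trav7-4. These 6 held 45.6% of the summed level of the 21, and the first 4 held 33.5%. At the low end, Trav21-dv12 had a mean of 5.79, Trav5-4 of 4.89 and Trav14d-1 of 4.72 normalized counts. The 21 held 51.1% of the summed level of all 87 alpha variable rows of the table. Trav11d and Trav1, which also lie in the alpha locus and stayed below the threshold, had 171 and 229 reads over all 64 libraries.

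**Figure D1:**
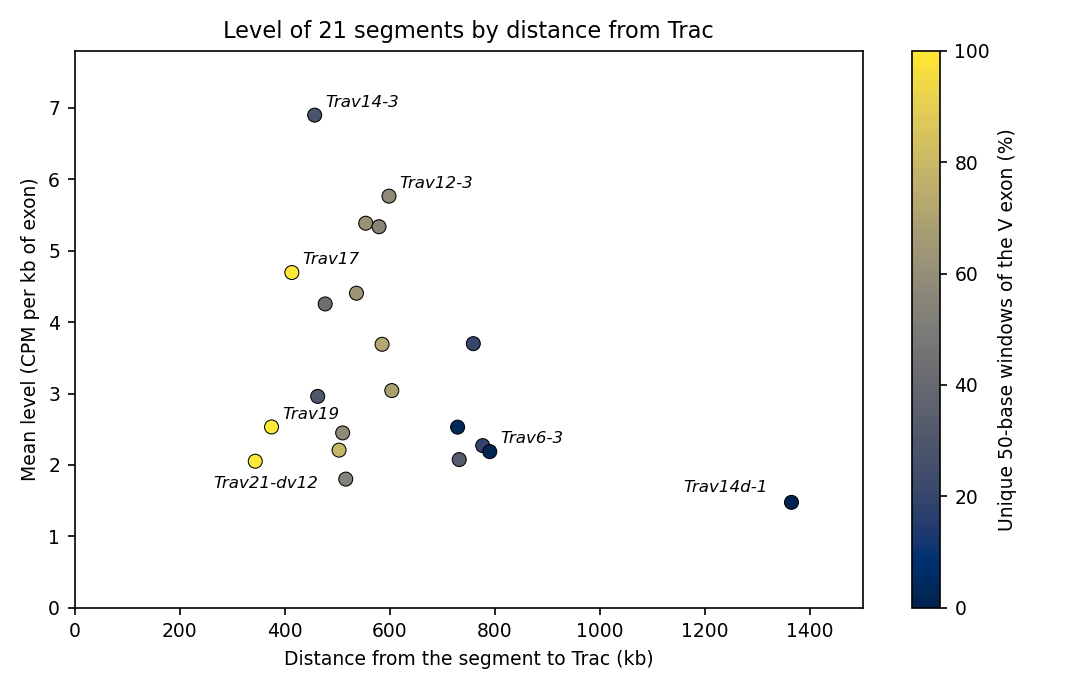
Mean level of each of the 21 segments in CPM per kb of exon (vertical axis) against its distance from Trac in kb (horizontal axis), with the share of unique windows of 50 bases in colour. The highest level is Trav14-3 at 457 kb, the lowest is Trav14d-1 at 1364 kb, and the 3 segments with only unique windows lie nearest to Trac.

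Across the 21 segments, level per kb and distance from Trac had a Pearson r of -0.34 and a Spearman rho of -0.24. Level and the share of unique windows had an r of 0.15 and a rho of 0.20. Both are descriptions over 21 genes that share the same libraries and the same array.

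Over the time course, 20 of the 21 segments had their highest group mean at 1 or 2 h and 20 had their lowest at 4 h. The exceptions were Trav14d-1, highest in KO cells at 0 h, and Trav6-3, lowest in DKO cells at 0 h. The lowest group was WT at 4 h for 9 segments. In WT cells the summed level of the 21 was 218.2 ± 16.3, 270.2 ± 23.3, 249.8 ± 12.04 and 130.5 ± 15.4 normalized counts after 0, 1, 2 and 4 h (SD, n = 4 each). The 4 WT libraries at 4 h ran from 110.2 to 146.1 and those at 0 h from 197.5 to 236.6, so they did not overlap. The sum at 4 h was 59.8% of that at 0 h in WT, 65.6% in DKO, 67.0% in KO and 69.0% in TKO cells, with no overlap between 0 h and 4 h libraries in any of them. In DKO cells the means at 0, 1, 2 and 4 h were 211.9 ± 14.5, 276.2 ± 54.2, 271.4 ± 32.9 and 138.9 ± 39.1. In KO cells they were 229.3 ± 35.7, 278.6 ± 30.4, 267.7 ± 12.7 and 153.7 ± 22.7. In TKO cells they were 218.8 ± 43.0, 236.5 ± 21.4, 243.6 ± 36.3 and 150.9 ± 20.3. The sums were given no test, since the segments were chosen by their levels.

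**Figure D2:**
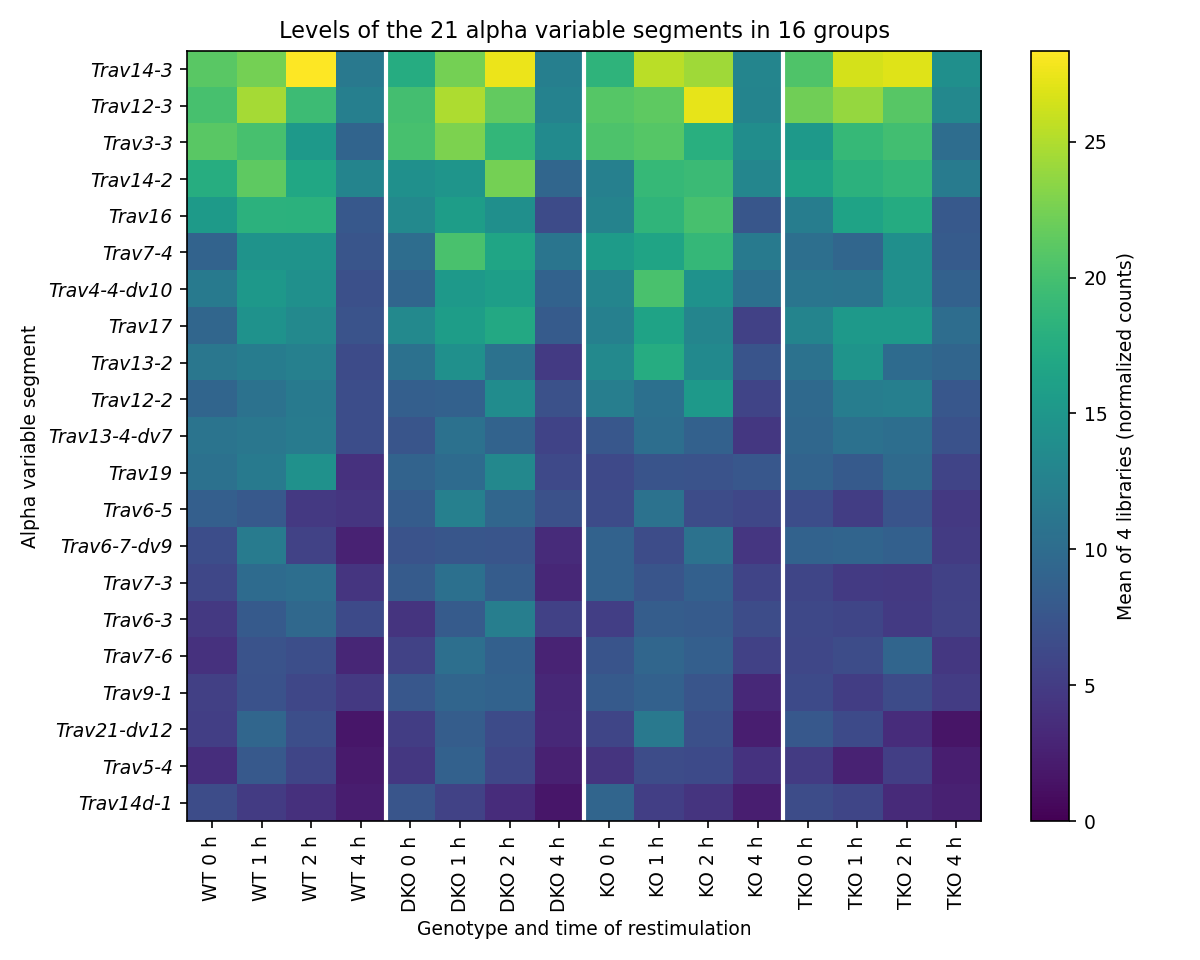
Mean of 4 libraries in normalized counts (colour) for each of the 21 segments (rows, ordered by mean level) in the 16 groups (columns, by genotype and hours of restimulation). The 4 h columns are the darkest in each genotype, and Trav14-3, Trav12-3, Trav3-3 and Trav14-2 are the brightest rows.

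The 21 make up 51.1% of the summed level of all 87 alpha variable rows, so that sum is not a separate check. At 4 h it was 61.6% of its 0 h level in WT, 66.0% in DKO, 69.6% in KO and 75.9% in TKO cells. Its libraries did not overlap between the 2 times. The 6 other alpha segments at or above 10 stood at 72.6, 65.1, 74.6 and 91.3% in the same order. Their libraries overlapped in TKO cells only. The 19 beta segments stood at 75.6, 72.0, 75.9 and 63.4% in the same order of genotypes. For Trac the share was 72.8% in WT, 78.9% in DKO, 83.1% in KO and 87.4% in TKO cells, and the libraries of both times overlapped in DKO and TKO. For Trbc1, which encodes one of the 2 beta constant regions, the shares were 92.3, 72.4, 77.8 and 64.7%, and for Trbc2, which encodes the other, 88.0, 81.2, 89.9 and 67.5%. The 3 segments with only unique windows summed to 51.5, 63.95, 63.7 and 59.4% of their 0 h level, with overlapping libraries in DKO and KO. The 18 with shared windows summed to 60.9, 65.8, 67.4 and 70.5%.

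Trac in WT cells was also above its 0 h level at 1 and 2 h and below it at 4 h. From 1 to 2 h, however, its mean rose while the summed level of the 21 segments fell. In WT cells Trac had 700.8 ± 60.5, 961.9 ± 34.6, 1030.4 ± 56.9 and 510.1 ± 44.95 normalized counts after 0, 1, 2 and 4 h (SD, n = 4). It rose by a log2 change of 0.46 ± 0.10 (SE) at 1 h (limma adjusted p = 0.000375) and of 0.56 ± 0.10 at 2 h (adjusted p = 7.77e-06), and fell by 0.46 ± 0.10 at 4 h (adjusted p = 0.000169), all against 0 h. Trac also fell at 4 h in DKO cells, by 0.36 (adjusted p = 0.00276), and in KO cells, by 0.27 (adjusted p = 0.0257). In TKO cells the log2 change of Trac was -0.20 (adjusted p = 0.11). Over the 16 group means, the summed level of the 21 segments and Trac had a Pearson r of 0.91 and a Spearman rho of 0.94 on the log2 scale, as a description of groups that share their libraries.

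The ratio of the 2 quantities was not flat. The 21 segments summed to 31.2 ± 2.5 per 100 normalized counts of Trac in unstimulated WT cells, then to 28.1 ± 2.1, 24.3 ± 1.2 and 25.5 ± 0.9 after 1, 2 and 4 h (SD, n = 4). At 0 h and 4 h the means were 27.0 and 22.0 in DKO, 28.2 and 22.8 in KO, and 28.3 and 22.4 in TKO cells. Libraries of 0 h and 4 h overlapped in KO and TKO and not in WT and DKO. The ratio is not per length and serves only to compare libraries.

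**Figure D3:**
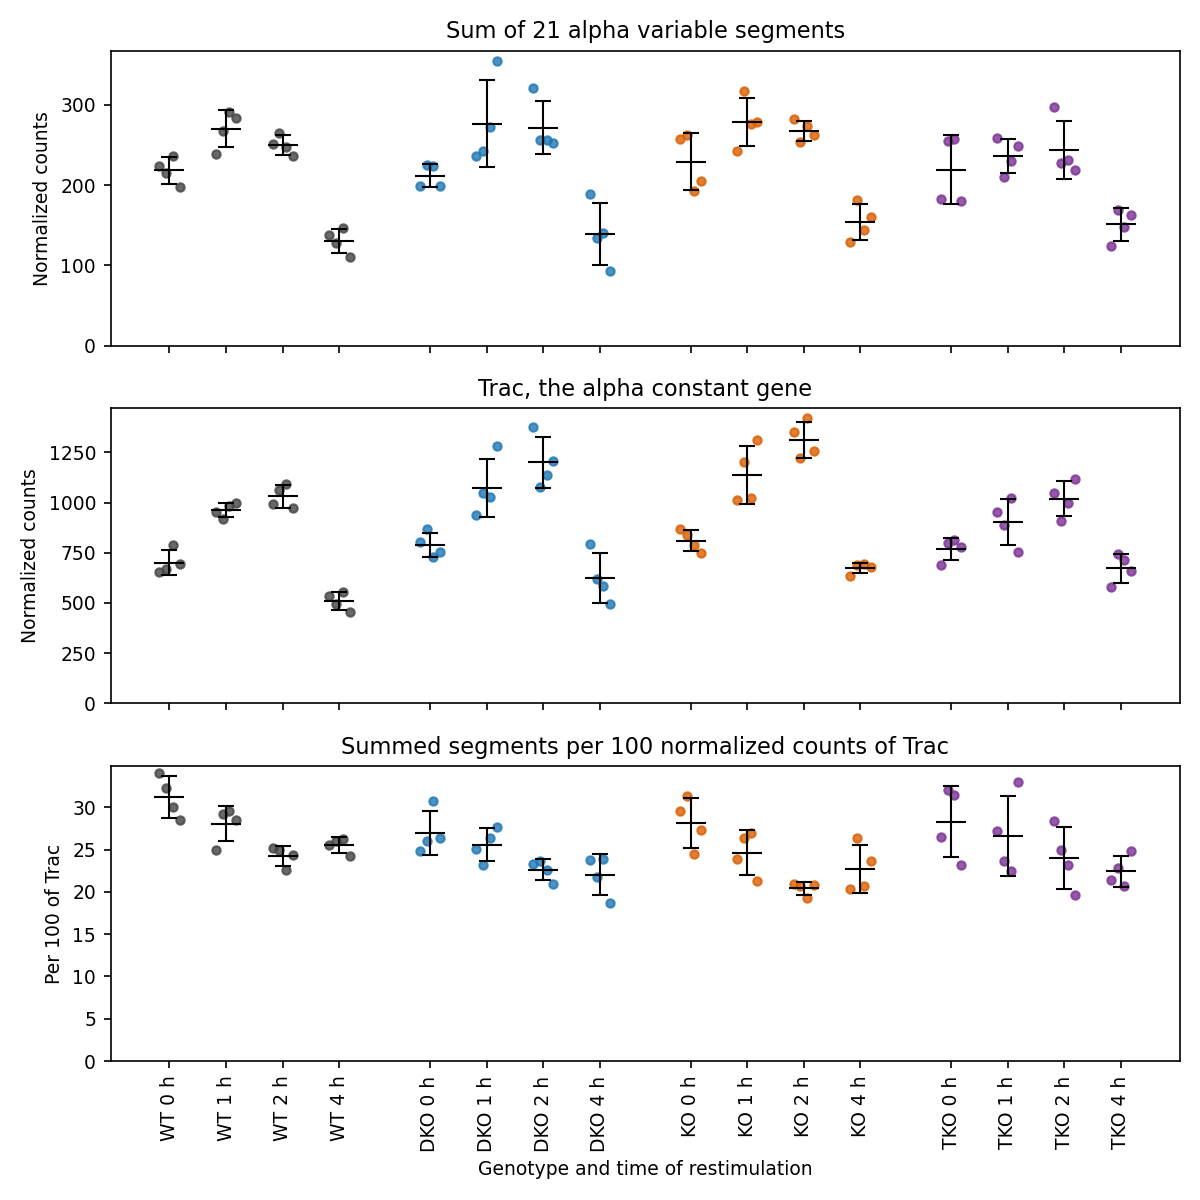
Sum of the 21 segments (top), Trac (middle) and the sum per 100 normalized counts of Trac (bottom) in each of the 64 libraries, by genotype and hours of restimulation, in normalized counts, with points for libraries and bars for mean ± SD (n = 4). In the top panel the WT libraries at 4 h lie between 110.2 and 146.1, below all WT libraries at 0 h (197.5 to 236.6).

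Tested singly in WT cells, 1 of 20 segments was called at 1 h and the same segment at 2 h. A call means a limma adjusted p under 0.05 over all 16140 genes tested. That segment was Trav7-4, whose V exon is 99.7% identical to that of Trav7d-4 and has 20.6% unique windows. It had 12, 8.8, 2.5 and 12.8 normalized counts in the 4 WT libraries at 0 h. The libraries of 1 h had 10.6, 21.2, 10.8 and 15.6, and those of 2 h had 14.6, 12.5, 18.8 and 12.3. The groups overlapped at both times, and 1 library at 0 h was far below the other three. Trav7-4 rose by a log2 change of 0.76 ± 0.30 (SE) at 1 h (adjusted p = 0.0470) and of 0.79 ± 0.30 at 2 h (adjusted p = 0.0223). Of all genes tested, 18.7% were called higher at 1 h and 26.5% at 2 h, so 1 of 20 is below the background. Without the low WT library at 0 h, the third of its list, the change was 0.23 at 1 h (adjusted p = 0.53) and 0.26 at 2 h (adjusted p = 0.433). The median of the 20 segments was 0.34 at 1 h and 0.30 at 2 h on the log2 scale, while that of all genes was -0.09 and -0.16.

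At 4 h in WT cells, 6 of 20 segments fell and none rose. Of all genes tested, 27.1% were called lower there, and of 3843 genes with a like mean number of reads, 12.7%. The share of the segments is thus near the background over all genes and above that of genes with like reads. The median log2 change of the 20 was -0.65, and 19 were below 0, while the median of all genes was 0.01. Calls in the other direction made up 24.6% of all genes. Medians at the same contrast were -0.15 for the 5 other alpha segments tested, -0.35 for 19 beta segments and -0.31 for 4 constant genes. The 4 h and earlier contrasts share the same 0 h libraries.

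Trav3-3 had the clearest change in WT cells. Its 4 libraries had 22.0, 29.4, 17.5 and 15.3 normalized counts at 0 h, then 9.2, 6.6, 9.9 and 10.9 at 4 h. Every library at 4 h was below every library at 0 h. Trav3-3 fell by 1.09 ± 0.27 on the log2 scale (SE, adjusted p = 0.000445). At 1 and 2 h its libraries ran from 15.1 to 25.9 and from 10.6 to 19.3, which overlaps with 0 h.

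Trav12-3 had 21, 18.6, 23.8 and 17.0 normalized counts at 0 h, then 15.4, 13.3, 10.8 and 9.4 at 4 h in WT cells. These did not overlap either, and Trav12-3 fell by 0.69 ± 0.29 (SE, adjusted p = 0.0388). Trav14-3, the highest segment, went from 23.0, 15.7, 22.5 and 23.0 to 11.3, 13.3, 13.5 and 7.8, with no overlap. It fell by 0.83 ± 0.31 (SE, adjusted p = 0.0213). At 2 h Trav14-3 stood at 20.3, 37.5, 31.0 and 24.5, so its libraries there overlapped those at 0 h.

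Trav19, which has only unique windows, had 8.0, 12.7, 13.8 and 7.7 normalized counts at 0 h, then 4.1, 2.8, 3.6 and 5.5 at 4 h in WT cells. The groups did not overlap, and Trav19 fell by 1.19 ± 0.41 (SE, adjusted p = 0.011). Trav21-dv12, also unique in sequence and lying nearest to Trac, had 6.0, 2.0, 6.3 and 6.8 at 0 h, then 0.0, 2.8, 0.9 and 3.1 at 4 h. Its groups overlapped through the 0 h library at 2.0, and it fell by 1.32 ± 0.48 (SE, adjusted p = 0.0167). Trav6-7-dv9 went from 7.0, 3.9, 7.5 and 8.5 to 1.0, 3.8, 4.5 and 1.6, with overlap, and fell by 1.13 ± 0.49 (SE, adjusted p = 0.0479). These low levels rest on few reads, and log2(value + 1) understates the size of their changes.

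In 5 of the 20 segments all 4 WT libraries at 4 h were below all 4 at 0 h, against 24.7% of all genes. The corresponding counts were 3 in DKO (24.9% of all genes), 2 in KO (26.1%) and 2 in TKO cells (20.7%). Near-copies outside the 21 did not all move the same way. Trav14n-1, which cannot be told from Trav14d-1 by its V exon, fell in WT cells at 4 h by 1.29 ± 0.30 on the log2 scale (SE, adjusted p = 0.000188). Trav12d-2 rose in WT cells at 1 h by 1.25 ± 0.42 (SE, adjusted p = 0.0164) and in TKO cells at 4 h by 1.47 ± 0.42 (SE, adjusted p = 0.00244). Its V exon is 100% identical to that of Trav12n-2 and has 0% unique windows, so these values are uncertain too.

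In the knockout cells, 7 of 20 segments fell at 4 h against 0 h in DKO, 6 in KO and 2 in TKO, and none rose. Genes called lower made up 26.9, 27.6 and 23.1% of all tested and genes called higher 28.3, 33.1 and 27.2%, so the TKO count lies under the background and the others near it. Among the 3843 genes with like reads, 16.7, 27.1 and 14.8% were called lower. The medians of the 20 segments were -0.57 in DKO, -0.56 in KO and -0.35 in TKO cells on the log2 scale, and those of all genes were -0.03, -0.05 and 0.04. The counts moved with single libraries: 2 segments were called in DKO without the fourth library at 4 h and 4 without the third at 0 h, 3 in KO without the first or the second at 0 h, and 1 in TKO without the second at 0 h or the third at 4 h. With the authors' deposited scaling, which shifts the median of all genes by -0.27 in DKO and -0.42 in KO cells, 11 and 13 were called. With only the groups compared in the fit, 0 were called in DKO, 3 in KO and 1 in TKO cells, and 2 in WT cells. The segments named in the next paragraphs for a call in knockout cells were chosen after their values were seen.

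Trav12-3 was the only segment called in all 4 genotypes. In DKO cells it had 24.5, 17.7, 19.5 and 17.8 normalized counts at 0 h, then 18.1, 7.3, 17.7 and 7.2 at 4 h, with overlap through the libraries near 18. In KO cells it had 24.6, 20.1, 11.8 and 27.0, then 12.7, 18.6, 9.5 and 10.3, also with overlap. In TKO cells it had 19.7, 28.1, 18.3 and 22.8, then 15.5, 14, 7.9 and 15.5, with none. Trav12-3 fell by 0.73 in DKO (adjusted p = 0.0261), by 0.65 in KO (adjusted p = 0.0442) and by 0.73 in TKO cells (adjusted p = 0.0286), with an SE of 0.29 in each. Each of these calls is near the threshold: with each of the 8 libraries left out in turn, the call was lost in 4 of 8 fits in WT, 3 in DKO, 6 in KO and 2 in TKO cells.

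Trav21-dv12 was called in 3 genotypes. In TKO cells it had 6.9, 11.0, 5.8 and 7.6 normalized counts at 0 h, then 2.7, 1.9, 0.9 and 1.0 at 4 h, so the groups did not overlap. It fell by 1.78 ± 0.48 (SE, adjusted p = 0.00137), the largest fall among the 20 segments at 4 h in any genotype. In KO cells it had 8.5, 7.3, 1.8 and 6.1 at 0 h, then 1.5, 0.0, 4.3 and 3.7 at 4 h, with overlap, and fell by 1.17 ± 0.48 (SE, adjusted p = 0.0314). In DKO cells 3 libraries at 0 h were at 2.7 or 2.8 and 1 was at 12.5, and those at 4 h ran from 0.7 to 5.7, with a log2 change of -0.44 (adjusted p = 0.48).

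DKO and KO cells had 2 further calls in common. Trav14d-1 went from 14.5, 3.7, 8.9 and 2.7 normalized counts to 1.9, 1.6, 2.1 and 1.4 in DKO cells and fell by 1.38 ± 0.53 (SE, adjusted p = 0.0216), without overlap. In KO cells it went from 2.8, 14.6, 6.4 and 13.1 to 3.7, 1.6, 3.5 and 0.7 and fell by 1.51 ± 0.53 (SE, adjusted p = 0.0117), with overlap. Trav14d-1 reached the threshold of 10 in only 2 groups, DKO and KO cells at 0 h, which are the baselines of these falls. The libraries that let it pass the filter on low values were all at 0 h too. A fall at 4 h was thus favoured by the choice, and these p-values are no independent support. Reads within the V exon of Trav14d-1 cannot be separated from those of Trav14n-1 by sequence, and the rest of their exons was not compared. Trav9-1 went from 10, 4.6, 9.8 and 6.2 to 0.0, 3.2, 5.2 and 4.3 in DKO cells, with overlap, and fell by 1.28 ± 0.43 (SE, adjusted p = 0.00899). In KO cells Trav9-1 went from 10.4, 5.5, 8.2 and 7.8 to 5.2, 3.2, 1.7 and 2.9, without overlap, and fell by 1.10 ± 0.43 (SE, adjusted p = 0.0232). Trav9-1 reached the threshold in only 4 groups, and DKO and KO cells at 0 h, the baselines of its falls, were among them. Its falls were thus favoured by the choice too, and their p-values are no independent support either.

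The other calls belong to 1 genotype each. In DKO cells Trav16 went from 6.3, 19.5, 11.6 and 16 normalized counts to 11.4, 6.5, 7.3 and 0.7 and fell by 1.15 ± 0.44 (SE, adjusted p = 0.0227). Trav7-3 went from 6.3, 7.4, 13.3 and 5.3 to 4.8, 4.9, 3.1 and 0.0 there and fell by 1.33 ± 0.48 (SE, adjusted p = 0.0148). Only Trav7-3 of these 2 kept the groups apart. Trav7-3 reached the threshold of 10 in only 5 groups, DKO cells at 0 h among them, so its fall was favoured by the choice as well. Trav13-2 and Trav7-6 fell in DKO cells by 0.84 (adjusted p = 0.0423) and 1.05 (adjusted p = 0.0365), both with overlap. In KO cells Trav17, unique in sequence, went from 9.4, 21.1, 11.8 and 7.0 to 6.7, 8.1, 2.6 and 4.4, with overlap, and fell by 1.03 ± 0.33 (SE, adjusted p = 0.00618). Trav12-2 fell in KO cells by 0.98 ± 0.39 (SE, adjusted p = 0.0289), from 19.8, 11.0, 10.9 and 7.0 to 3.0, 9.7, 6.9 and 3.7, with overlap.

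Over the 4 genotypes, 14 of 20 segments were called lower at 4 h in at least 1, of which 10 in 1 only, 2 in 2, 1 in 3 and 1 in 4. The estimate was below 0 in all 4 genotypes for 15 segments and in 3 for another 4. Of all genes, 23.1 to 27.6% were called lower in a single genotype, and the share in at least 1 of 4 cannot be smaller. That share was not computed, nor the share of genes below 0 in all 4, so these tallies are no result about the segments. The 6 segments without a call were Trav14-2, Trav7-4, Trav4-4-dv10, Trav13-4-dv7, Trav6-5 and Trav6-3. Among them are 2 with shares of unique windows under 3% (Trav6-5 and Trav6-3) and the fourth highest segment, Trav14-2. Trav14-2 had 18, 15.7, 30 and 6.8 normalized counts at 0 h in WT cells and 12.3, 12.3, 11.7 and 14.9 at 4 h, so the 0 h group straddles the 4 h group. A call in 1 genotype and not in another does not show a difference between them.

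Most calls at 4 h were lost when some single library was left out. Trav3-3 and Trav19 in WT and Trav21-dv12 in TKO cells kept theirs with each library left out in turn. In DKO cells, without the fourth library at 4 h, the log2 change was -0.55 for Trav16 (adjusted p = 0.306), -0.74 for Trav7-3 (adjusted p = 0.199) and -0.50 for Trav7-6 (adjusted p = 0.364). Without the first DKO library at 4 h, that of Trav9-1 was -0.68 (adjusted p = 0.171). In KO cells, without the second library at 4 h, that of Trav21-dv12 was -0.67 (adjusted p = 0.232). In these 5 cases the call was lost and the change moved by over 1.5 times. The other calls at 4 h were each lost in 2 to 6 of 8 fits.

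**Figure D4:**
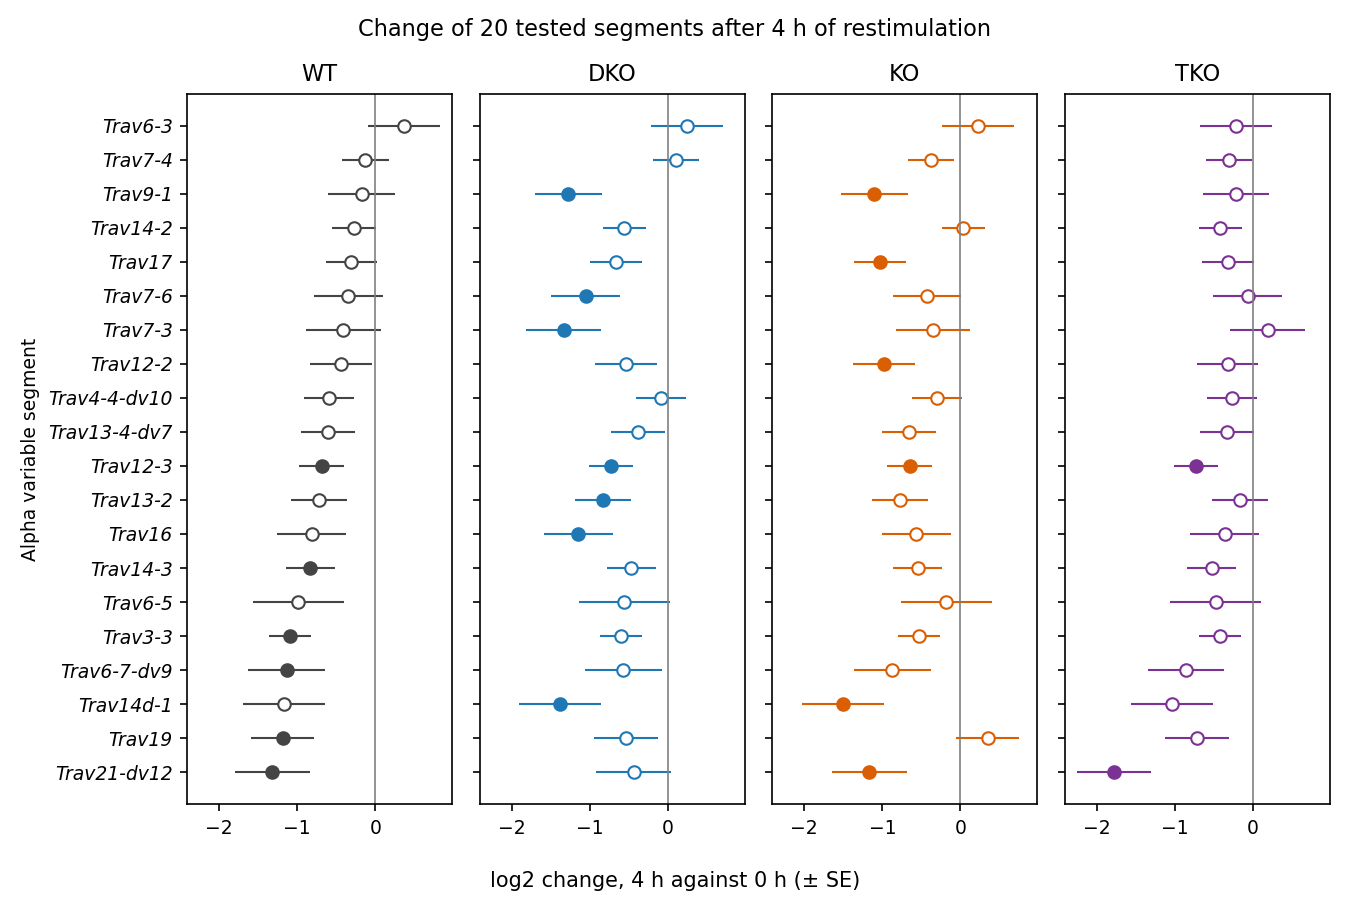
log2 change from 0 h to 4 h (horizontal axis, on the log2(value + 1) scale, ± SE) of the 20 tested segments (rows, ordered by the change in WT) in WT, DKO, KO and TKO cells. Filled points are called (limma adjusted p under 0.05, 6, 7, 6 and 2 segments), and most points lie left of 0 in every genotype.

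The difference itself was tested as knockout minus WT in the change from 0 to 4 h, and no segment was called in DKO, KO or TKO cells. Of all genes, 0.824% were called in DKO, 2.19% in KO and 6.64% in TKO cells. At an unadjusted p under 0.05 there was 1 segment in KO and 0 in DKO and TKO. That segment was Trav19, which had 8.5, 7.3, 6.4 and 2.6 normalized counts at 0 h in KO cells and 6.7, 8.9, 9.5 and 5.9 at 4 h. Its difference from WT was 1.54 ± 0.57 on the log2 scale (SE, adjusted p = 0.12). The limma voom test on recovered reads also called 0. The SE of these differences ran from 0.38 to 0.83.

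Knockout against WT at a given time gave 12 comparisons and 240 tests of segments, of which 1 was called and 7 had an unadjusted p under 0.05. The comparisons of the 3 knockouts at a time share the WT libraries. At 0 h 0 of 20 segments were called in DKO, KO and TKO cells, where 7.65, 1.33 and 37.5% of all genes were. At 1 h 0 were called, against 8.23, 2.16 and 31.6% of all genes, and at 4 h 0, against 5.43, 33.6 and 44.0%. At 2 h 1 was called in TKO and 0 in DKO and KO cells, against 36.7, 9.48 and 5.95% of all genes. The 240 log2 differences lay between -1.19 and 0.92 with an SE of 0.27 to 0.58.

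The called segment was Trav6-3, whose V exon has 1.23% unique windows. It had 7.3, 8.0, 7.7 and 15.3 normalized counts in WT cells at 2 h and 7.3, 4.4, 0.0 and 7.7 in TKO cells. The groups overlapped, with 1 high WT library and 1 TKO library at 0. Trav6-3 was lower in TKO cells by a log2 difference of -1.19 ± 0.46 (SE, adjusted p = 0.0363). Without the TKO library at 0, the third of its list, the difference was -0.47 (adjusted p = 0.43), and without the high WT library, the fourth, the adjusted p was 0.14. The voom test called 1 of the 240. Of the others with an unadjusted p under 0.05, Trav3-3 in KO cells at 4 h had 11.9, 14.5, 13.8 and 15.5, above every WT library, and a log2 difference of 0.57 ± 0.27 (SE, adjusted p = 0.0916).

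For comparison, Trac was higher than in WT in KO cells at 2 h, by a log2 difference of 0.35 (adjusted p = 0.0336), in KO cells at 4 h, by 0.40 (adjusted p = 0.0034), and in TKO cells at 4 h, by 0.40 (adjusted p = 0.00186). Of all genes, 5.95, 33.6 and 44.0% were called in these comparisons, in either direction. The medians of all genes there were 0.06, 0.22 and 0.20, so Trac stood above the median gene by less than its own differences. Trbc1 was higher in TKO cells at 0 h, by 0.43 (adjusted p = 0.0204), where 37.5% of all genes were called and their median was 0.08. These genes have many more reads than any segment, and their SE of 0.10 (Trac) and 0.15 (Trbc1) was well under that of the segments.

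For the median segment, libraries of a group differed by more than counting error alone, and by less than for the median gene with like reads. The chi-square statistic between the libraries of a group was 1.37 per degree of freedom for the median segment, with quartiles of 1.21 and 1.56, where 1 is counting error alone. It ran from 0.94 for Trav7-4 to 2.50 for Trav16. The 3843 genes with like reads had a median of 1.75 and quartiles of 1.40 and 2.31, and the 19 beta segments had 1.45. Trac was at 8.56, Trbc1 at 7.16 and Trbc2 at 15.2, where many more reads make a small relative spread visible. The median coefficient of variation within a group was 35.4% for the segments (19.6% for the steadiest and 60.1% for the least steady), against 33.1% from counting error alone. A median coefficient from 4 libraries tends to lie below the true one, so this gap is understated, and the chi-square is the better measure. For Trac, Trbc1 and Trbc2 it was 11.9%, against 4.11%. At this depth, then, counting error limited how far the evenness of V segment use between libraries could be seen.

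Segments differed in how far apart the libraries of a group lay. The ratio of the highest to the lowest library, as the median over 16 groups, was 1.54 for Trav14-2, 1.61 for Trav12-3, 1.68 for Trav3-3, 1.69 for Trav7-4 and 1.90 for Trav14-3. It was 4.59 for Trav14d-1, 3.88 for Trav5-4, 3.76 for Trav6-5, 3.29 for Trav21-dv12, 3.12 for Trav6-7-dv9 and 2.90 for Trav7-3. Trav16 stood out among the higher segments, with 1 DKO library at 32.0 normalized counts at 1 h where the other three had 8.7 to 12.4.

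**Figure D5:**
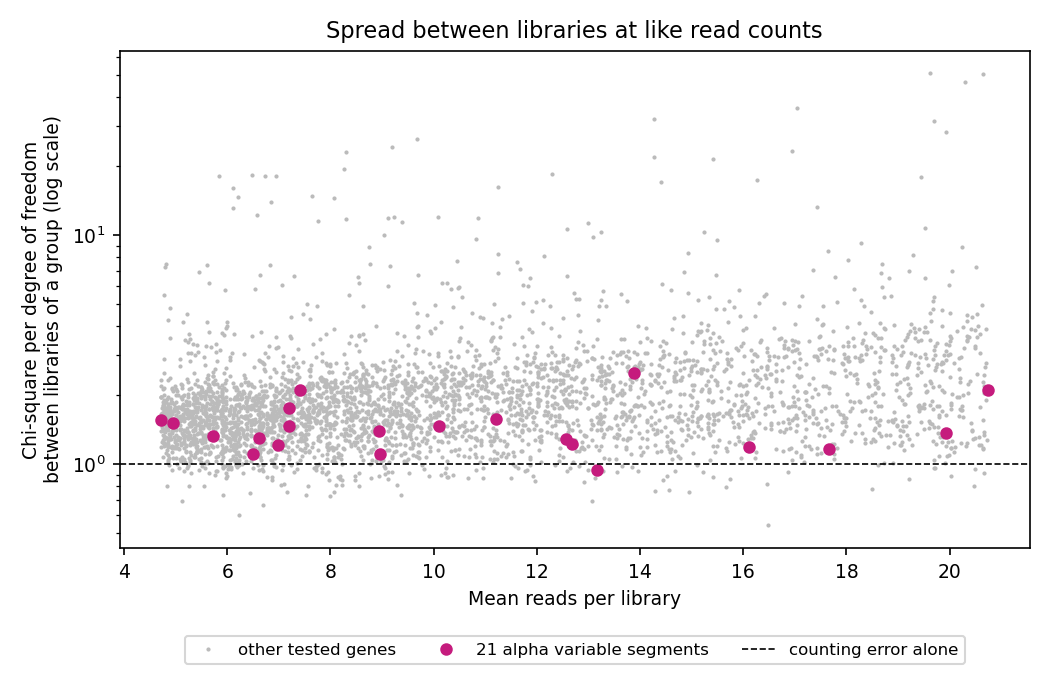
Chi-square per degree of freedom between the 4 libraries of a group (vertical axis, log scale) against mean reads per library (horizontal axis) for the 21 segments (large points) and 3843 other tested genes in the same range of reads (small points), with a dashed line at the value for counting error alone. The segments lie between 0.94 and 2.50, mostly in the lower part of the other genes.

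The alpha chain reaches the surface with the beta chain and the CD3 chains, so the genes of that complex were looked at from a separate list. Of 9 listed CD3 and coreceptor genes 8 were in the table. At 4 h against 0 h in WT cells, 4 of the 8 fell and 1 rose, and in DKO, KO and TKO cells 4 fell and 3 rose. Of all genes, 27.1, 26.9, 27.6 and 23.1% were called lower and 24.6, 28.3, 33.1 and 27.2% higher in WT, DKO, KO and TKO cells. The count of falls is above that background. The 1 rise in WT cells is below it and the 3 rises in each knockout are somewhat above it, in a list of only 8 genes. The CD3 chains Cd3d, Cd3e and Cd3g, which carry the signal of the receptor, and the coreceptor Cd4 fell in all 4 genotypes. Cd3d went from 500.9 ± 94.9 to 243.6 ± 26.6 normalized counts in WT cells (SD, n = 4) and fell by 1.02 on the log2 scale (adjusted p = 3.74e-08). It fell by 1.02, 0.74 and 0.70 in DKO, KO and TKO cells. Cd3g fell by 1.03 in WT and by 0.73, 0.65 and 0.68 in the knockouts, and Cd3e by 0.59, then 0.44, 0.40 and 0.50. Cd4 went from 1331.5 ± 218.9 to 701.2 ± 132.0 in WT cells (SD, n = 4), and fell by 0.93 there and by 0.74, 0.80 and 0.44 in the knockouts.

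Cd247, the zeta chain of the complex, went another way. It had 2756 ± 431 normalized counts at 0 h and 2654 ± 298 at 4 h in WT cells (SD, n = 4), a log2 change of -0.05 (adjusted p = 0.79). Cd247 rose in DKO cells by 0.66, in KO cells by 0.73 and in TKO cells by 0.81, and the change differed from WT in all 3 (adjusted p = 0.0195, 0.00422 and 0.000293). Trat1, an adaptor that associates with the receptor, rose in all 4 genotypes, by 0.99, 1.71, 1.86 and 1.89. Cd8b1 rose in DKO, KO and TKO cells by 1.20, 1.39 and 1.30, and had a change of 0.37 in WT cells (adjusted p = 0.50). Cd8a was not called in any genotype. Of 18 proximal signalling genes, such as the kinases Lck and Zap70, 9 rose and 2 fell at 1 h in WT cells, 11 rose and 4 fell at 2 h, and 7 rose and 7 fell at 4 h. Of all genes in WT cells, the shares called higher at these times were 18.7, 26.5 and 24.6%, and the shares called lower were 12.4, 25.5 and 27.1%. The rises at 1 and 2 h are thus above the background and the falls near it. At 4 h the counts were 4 up and 9 down in DKO, 8 and 6 in KO and 4 and 8 in TKO cells. The 4 rises in DKO and in TKO cells are near or under the shares of all genes called higher there (28.3 and 27.2%), and the other counts at 4 h are near or above the background of their direction.

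Of the recombination genes, Dntt, which adds bases at V to J junctions, passed the filter. It had 61.9 ± 43.3 normalized counts at 0 h and 8.74 ± 4.79 at 4 h in WT cells (SD, n = 4) and fell by 2.58 there and by 2.61, 2.72 and 2.49 in the knockouts. Rag1 and Rag2 had WT group means of at most 2.2 at 0 and 4 h.

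Markers of other cells that a CD4 culture could hold moved with time too, and their part in the changes of the segments was not tested. The 8 alpha beta T cell genes were all present, and summed to 7193 to 9097 normalized counts in the WT libraries at 0 h. Of 6 gamma delta T cell markers 5 were in the table, and summed to 25.02 to 47.6 in WT cells at 0 h and 7.2 to 25.8 at 4 h, with group means of 6.53 to 33.4 over the 16 groups. Cd8a and Cd8b1 summed to 26.4 to 126.1 in WT cells at 0 h and 37.9 to 134.7 at 4 h. Of 8 B cell markers 7 were in the table, and summed to 868 to 1806 at 0 h and 103 to 201 at 4 h, nearly all of it Ighm. Cd79a, Ms4a1 and Igkc, which mark B cells, had group means of 0.0 to 2.5 at both times in WT cells. Of 6 myeloid markers 5 were in the table, and summed to 263 to 399 and 165 to 217, nearly all Ctss and Itgam, while Lyz2 was at 0. The thymocyte markers in the table, 4 of 5, summed to 39.2 to 132.8 and 10.4 to 17.5, mostly Dntt. In knockout cells the group means at 4 h were below those at 0 h for gamma delta, B cell, myeloid and thymocyte markers. The CD8 sum went the other way there, from a mean of 49.0 to 105.3 in DKO, from 107.5 to 221.4 in KO and from 93.8 to 196.2 in TKO cells.

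The lists for NK, invariant NKT and regulatory T cells each rest largely on a gene that activated CD4 T cells can also express. NK markers summed to 86.0 to 320.3 in WT cells at 0 h and 262.6 to 493.8 at 4 h, nearly all Eomes, while Ncr1 had WT means of 1.1 at 0 h and 0.3 at 4 h. Their group mean was higher at 4 h than at 0 h in every genotype. Invariant NKT markers summed to 399.3 to 559.3 in WT cells at 0 h and 1439 to 1961 at 4 h, most of it Slamf1, and were also higher at 4 h by group mean in DKO, KO and TKO cells. Regulatory T cell markers summed to 6554 to 8684 at 0 h and 6431 to 7306 at 4 h in WT cells, nearly all Il2ra, and were lower at 4 h by group mean in all 4 genotypes. Foxp3, which defines regulatory T cells, had WT means of 141.4 at 0 h and 19.1 at 4 h. None of these lists was tested for a part in the segments' changes.

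The genes whose group means followed Trac most closely over the 16 groups, other than T cell receptor genes, were H2-K1, Sdcbp, Gltscr2 and Ctdsp1 (Pearson r of 0.96 each), Il2ra (0.95), and Egln3, Cd53, Vps54, Gramd1a and Cd2 (0.94 each). Those closest to Trbc2 were Egln3 and Cd53 (0.88), Cxcr3 (0.85), Cd2 and Arid3b (0.83), and Gm2445, Aldoart1, Rlf, Jund and Ltb (0.82). The likeness is in the log2 group means only.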

How the data were processed

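RNA sequencing of 64 libraries (16 groups of 4) was used. The values are 4 normalized counts for each group, per the file headers, and the authors' mean of them (signal, in normalized counts), which served only for the threshold of 10. Per the submitters' processing notes, the build was GRCm38. Aligner, counter and strand setting: not given in the sources used here. No segment overlaps another annotated gene. Reads and depth were recovered from the low values, of which 100% were whole multiples of a library's smallest step (tolerance 0.1 read). All libraries differed by more than sampling noise (chi-square of 5.11 to 69.0 per degree of freedom).

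Values were scaled by the trimmed mean of M values (trims of 30 and 5 percent). Genes were kept with at least 10 reads at median depth (1.3 CPM) in at least 4 libraries and at least 15 reads in all, which left 16140. The test was limma 3.58.1 (R 4.3.3) on log2(value + 1), with 1 mean per group over 64 libraries (48 residual degrees of freedom) and trended, robust empirical Bayes moderation. P-values are 2-sided and Benjamini-Hochberg adjusted over all genes, called under 0.05. The code was tested on simulated data, in which the changed genes had at least about as many reads as the highest segments. That test does not show how calls fare at the level of the other segments. Sequences are from GENCODE M21 transcripts.

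The rule for names took the 6 highest segments, up to 8 called in WT over time or against WT, the 6 with the largest and the 3 with the smallest ratio of highest to lowest library, those at the threshold, every CD3 chain and coreceptor, and the 10 genes most like Trac and Trbc2. It foresaw constant genes among the members, of which there were none. Members and lists were chosen with earlier results of these data known. Alternatives were other scalings (deposited, median-of-ratios and upper-quartile), pseudocounts, no filter, limma voom, only the groups compared, a replicate block and each library left out.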

Additional observations from a re-analysis of the deposited data

Results flagged for a closer look

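In groups of 4 libraries, 1 library stood apart from the other three by more than Dixon's 95% critical value in 27 of 400 groups looked at, 20 of them among the 336 of single segments. Chance gives about 1 in 20 such groups. The library was high in 21 cases and low in 6, and the cases fell in 23 libraries, with at most 2 in the same library. All values are normalized counts.

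Among the higher segments, Trav14-3 had a WT library at 0 h at 15.7, where the other three had 22.5 to 23.0, and a TKO library at 0 h at 31.7 (others 15.9 to 17.4). Trav3-3 had TKO libraries at 21.8 at 1 h (17.9 to 18.3) and 27.2 at 2 h (16.5 to 17.8). Trav14-2 had a TKO library at 14.6 at 4 h (10.6 to 11.2), and Trav4-4-dv10 a TKO library at 18.3 at 0 h (7.7 to 9.4). Trav16 had a DKO library at 32.0 at 1 h (8.7 to 12.4), and Trav13-2 a KO library at 3.0 at 4 h (8.6 to 8.9).

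Trav19 had a DKO library at 11.4 at 4 h (4.1 to 5.2), a KO library at 3.1 at 2 h (8.1 to 9.0) and a TKO library at 13.2 at 2 h (8.4 to 8.9). Trav6-5 had a WT library at 5.2 at 1 h (8.6 to 9.1) and a TKO library at 4.3 at 0 h (7.3 to 7.7). Trav13-4-dv7 had a WT library at 18.2 at 2 h (8.9 to 10.2). Trav21-dv12 had a WT library at 2.0 at 0 h (6.0 to 6.8) and a DKO library at 12.5 at 0 h (2.7 to 2.8). Trav6-3 had a WT library at 15.3 at 2 h (7.3 to 8.0) and a DKO library at 6.5 at 0 h (others 3.6). Trav9-1 had TKO libraries at 10.7 at 1 h (2.4 to 3.6) and 9.9 at 2 h (5.2 to 5.5).

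The summed level of the 21 segments had a DKO library at 320.8 at 2 h (252.8 to 256.4) and a TKO library at 297.5 at 2 h (218.8 to 231.2). Trbc1 had a DKO library at 451.1 (272.4 to 291.9) and a TKO library at 424.0 (298.4 to 311.3), both at 0 h. Trbc2 had a WT library at 549.5 at 4 h (453.8 to 462.8), a DKO library at 818.0 at 0 h (524.2 to 558.8) and a TKO library at 841.4 at 0 h (587.2 to 597.7).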

How the results depend on the processing

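None of the 24 called segments and contrasts and none of the summed levels changed direction. The median of all genes did in some comparisons, for example with the deposited scaling in WT cells at 1 h (-0.09 to 0.05) and in TKO cells at 4 h (0.04 to -0.16). Counts of called segments were small and several calls lay near the threshold. Of the 24, 3 were called under each alternative that could be run (Trav3-3 and Trav19 in WT and Trav21-dv12 in TKO cells at 4 h), and 21 were lost under at least 1. With a library left out, 129 of these calls held and 63 did not. The cause was not tested. In WT cells at 1 h the 1 call became 0 without a filter, with median-of-ratios or upper-quartile factors, pseudocount 5, voom, only the groups compared or the replicate block, and at 2 h 0 without a filter or with only the groups compared. With only the groups compared, fewer genes were tested, and 2 segments were called in WT, 0 in DKO, 3 in KO and 1 in TKO cells at 4 h. With the deposited scaling 11 were called in DKO and 13 in KO cells, and with upper-quartile factors 10 in KO cells, where the median of all genes shifted by -0.27 (DKO), -0.42 (KO) and -0.28 (KO, upper-quartile). Against WT, the deposited scaling gave 1 call in KO cells at 0 h and 2 in TKO cells at 1 h, and no filter gave 1 there. In TKO cells at 2 h the 1 call became 0 without a filter, with pseudocount 5 or with only the groups compared.

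The summed segments at 4 h were 49.42% of 0 h in KO cells with the deposited scaling and 54.81% with upper-quartile factors, and 59.17% in TKO cells with the deposited scaling. The summed constant genes were 81.28, 78.38, 84.34 and 75.53% in WT, DKO, KO and TKO cells. With the deposited scaling they were 87.19, 64.43, 62.04 and 64.86%, with median-of-ratios factors 78.19% in KO, with upper-quartile factors 68.91% in KO and 68.32% in TKO, and without the most abundant of them 88.64% in WT and 66.34% in TKO cells. The median coefficient of variation of Trac, Trbc1 and Trbc2 was 8.61% as a share of their summed level (11.94% otherwise).

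Leaving out 1 library gave 0 to 1 calls in WT at 1 h and at 2 h (0 at 1 h without WT library 2 or 3 at 0 h or 2 or 4 at 1 h, and 0 at 2 h without the third at 0 h), 4 to 7 in WT, 2 to 8 in DKO, 3 to 7 in KO and 1 to 3 in TKO cells at 4 h. The lowest counts came without the fourth DKO library at 4 h (2), the first or second KO library at 0 h (3), and the second TKO library at 0 h or the third at 4 h (1). Against WT it gave 0 to 1 in TKO cells at 0 h (1 without TKO library 2 or 3), at 1 h (1 without the third TKO library) and at 2 h (0 without WT library 4 or TKO library 3), and 0 elsewhere. Libraries in the same place of 2 lists had correlated deviations in some comparisons (0.22 to 0.51 for WT with DKO and 0.21 to 0.62 for WT with KO at 1 h, each of the 4 best with its own place) and not in others (-0.50 to 0.01 for WT with KO at 0 h). The places were taken as shared names only, and a replicate block by list place gave 6, 7, 7 and 2 calls at 4 h in WT, DKO, KO and TKO cells. Count models planned as alternatives were not run, and limma voom on the recovered reads was run. With 4.72 to 20.75 reads per segment and library, counting error limits all single values.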
